A study of Homo sapiens with 36 samples.

Results

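In neuroblastoma cells transfected with either of 2 siRNAs against HDAC11, a class IV histone deacetylase, 9 genes stood at unlike levels with the 2 siRNAs. They are MAPK6, SRPRB, JPT1, NPTN, ARRB1, CHCHD10, LCP1, DCN and PPARGC1A. The genes were chosen by the difference in their signals between siRNA no. 1 and siRNA no. 2, the largest in an earlier analysis of the same arrays once cell cycle and histone genes were set aside. The difference between the siRNAs, and the difference of either siRNA from the control, is therefore given for these genes as a description with a standard error and no test. The 9 genes, of 20045 named genes on the arrays, were measured by 16 of 47320 tested probes. ARRB1 and NPTN had 3 probes each, DCN had 4, and the other 6 genes had 1 each. A gene with several probes was led by its brightest one, and the others are described beside it.

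RNA was hybridised to 36 Illumina HumanHT-12 bead arrays, 18 for BE(2)-C and 18 for IMR-32 cells. Both are established human neuroblastoma lines with MYCN amplification, and BE(2)-C is a clonal subline. Cells of each line were transfected transiently with one of the HDAC11 siRNAs (no. 1 or no. 2) or with a negative control (Neg Co. No. 1) and harvested 42, 48 or 54 h later, with 2 replicates at each time, which gave 6 arrays per siRNA and line. The submitters call the replicates biological without saying how the cultures were kept apart, so that p-values measure only the spread between these samples. Both lines were unmodified apart from the transfection, and an untransfected group was not analysed here.

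An siRNA guides the RNA interference machinery to a transcript that carries its complement. The bases near the start of the guide strand, its seed, do most of the searching, and short matches to the seed are known to let a guide act on transcripts other than its target. For this reason 2 siRNAs of unlike sequence are commonly set against the same gene. The HDAC11 site of siRNA no. 2, on chromosome 3, is shown because it is the sequence by which that siRNA can be told from any other. Capitals mark its bases 14 to 20, which face bases 2 to 8 of a guide that spans all 21 bases. The site of siRNA no. 1 was not analysed here.
HDAC11 siRNA no. 2 target: gcgagacttcatgGACGACAa

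Between 36.1% and 41.8% of the probes were detected per array, which means a detection p under 0.01 and a signal over that of the background. The background centres lay between intensities of 95.3 and 122. After quantile normalization replicates correlated at r = 0.985 to 0.994, and all intensities of genes are given on this normalized linear scale. The only HDAC11 probe was detected on 0 of 24 HDAC11 siRNA arrays and on 2 of 12 control arrays, so that the arrays give no size for the knockdown. Of 8 measured markers of adrenergic neuroblastoma, all 8 were detected on every BE(2)-C array, and on the IMR-32 arrays the same was true of the markers other than DBH. Markers of endothelial and Schwann cells were not detected, except TIE1 on 1 BE(2)-C array with siRNA no. 1. The RNA came from whole cultures, in which fewer cells of a type and less RNA per cell cannot be told apart.

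MAPK6, SRPRB, JPT1 and NPTN shared a pattern. All 4 were lower with siRNA no. 1 than with the control in both lines, and with siRNA no. 2 they were near the control or above it. MAPK6 encodes ERK3, an atypical MAP kinase that binds and activates the kinase MAPKAPK5. In BE(2)-C cells the lowest, median and highest MAPK6 intensities over 6 arrays were 247, 294 and 383 with siRNA no. 1, 1216, 1373 and 1683 with siRNA no. 2 and 1134, 1317 and 1450.2 with the control siRNA. In IMR-32 they were 577, 713 and 863 with siRNA no. 1, 1885, 2275 and 2449 with siRNA no. 2 and 1675, 1807.5 and 1918 with the control siRNA. The siRNA no. 1 arrays lay below all others in both lines, while the siRNA no. 2 and control arrays overlapped. The difference from control, averaged over the 3 times on the log2 scale, was -2.11 with siRNA no. 1 (standard error 0.08) and 0.09 with siRNA no. 2 (0.07) in BE(2)-C cells. In IMR-32 it was -1.34 (0.07) and 0.29 (0.06). MAPK6 signal with siRNA no. 1 was thus 4.59-fold below that with siRNA no. 2 in BE(2)-C and 3.09-fold below it in IMR-32.

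SRPRB encodes the membrane-anchored subunit of the signal recognition particle receptor, which brings ribosomes that are making secretory and membrane proteins to the endoplasmic reticulum. Its intensities in BE(2)-C cells were 492, 530.2 and 717 with siRNA no. 1, 2349, 2627 and 3247 with siRNA no. 2 and 1484, 1751 and 2141 with the control siRNA. Those in IMR-32 cells were 575, 687 and 892 with siRNA no. 1, 2172, 2271 and 2434 with siRNA no. 2 and 1495, 1652 and 1698 with the control siRNA. The groups did not overlap in either line, with siRNA no. 1 lowest and siRNA no. 2 highest, so that the control lay between the siRNAs. In BE(2)-C cells the log2 difference from control was -1.70 (0.07) with siRNA no. 1 and 0.60 (0.07) with siRNA no. 2. In IMR-32 it was -1.18 (0.08) and 0.50 (0.06). Among named probes in BE(2)-C cells, SRPRB had the lowest value of siRNA no. 1 minus no. 2, -2.30.

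JPT1 encodes a small protein associated with microtubules. Its intensities were 414, 519.8 and 575 with siRNA no. 1, 1598, 2069 and 2443 with siRNA no. 2 and 1616, 1756 and 2001 with the control siRNA in BE(2)-C cells. In IMR-32 they were 1090.0, 1415 and 1825 with siRNA no. 1, 3394, 3737 and 4022 with siRNA no. 2 and 3033, 3304 and 3596 with the control siRNA. All siRNA no. 1 arrays lay below all others of their line, and the siRNA no. 2 and control arrays overlapped. Against the control, the log2 differences were -1.83 (0.06) with siRNA no. 1 and 0.20 (0.07) with siRNA no. 2 in the BE(2)-C line. The same differences in IMR-32 cells were -1.22 (0.08) and 0.20 (0.06).

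NPTN encodes neuroplastin, an immunoglobulin-domain adhesion protein of synapses that also accompanies plasma membrane calcium pumps. Its lead probe read 548, 646 and 763 with siRNA no. 1, 2701, 3096.5 and 3350.5 with siRNA no. 2 and 2463, 2881 and 3642 with the control siRNA in BE(2)-C cells. It read 1076, 1198 and 1359 with siRNA no. 1, 2667, 2779.6 and 3049.7 with siRNA no. 2 and 2372, 2543 and 2563 with the control siRNA in IMR-32 cells. Again the siRNA no. 1 arrays stood alone at the bottom, and in IMR-32 cells every siRNA no. 2 array lay above every control array. The log2 differences from control were -2.17 (0.10) with siRNA no. 1 and 0.06 (0.08) with siRNA no. 2 in BE(2)-C cells. They were -1.06 (0.06) and 0.16 (0.06) in IMR-32 cells. A second NPTN probe also had all siRNA no. 1 arrays below all others in both lines, while its siRNA no. 2 and control arrays overlapped in both. On it siRNA no. 1 minus no. 2 was -2.06 in BE(2)-C and -1.31 in IMR-32. The third was detected on no array.

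**Figure D1:**
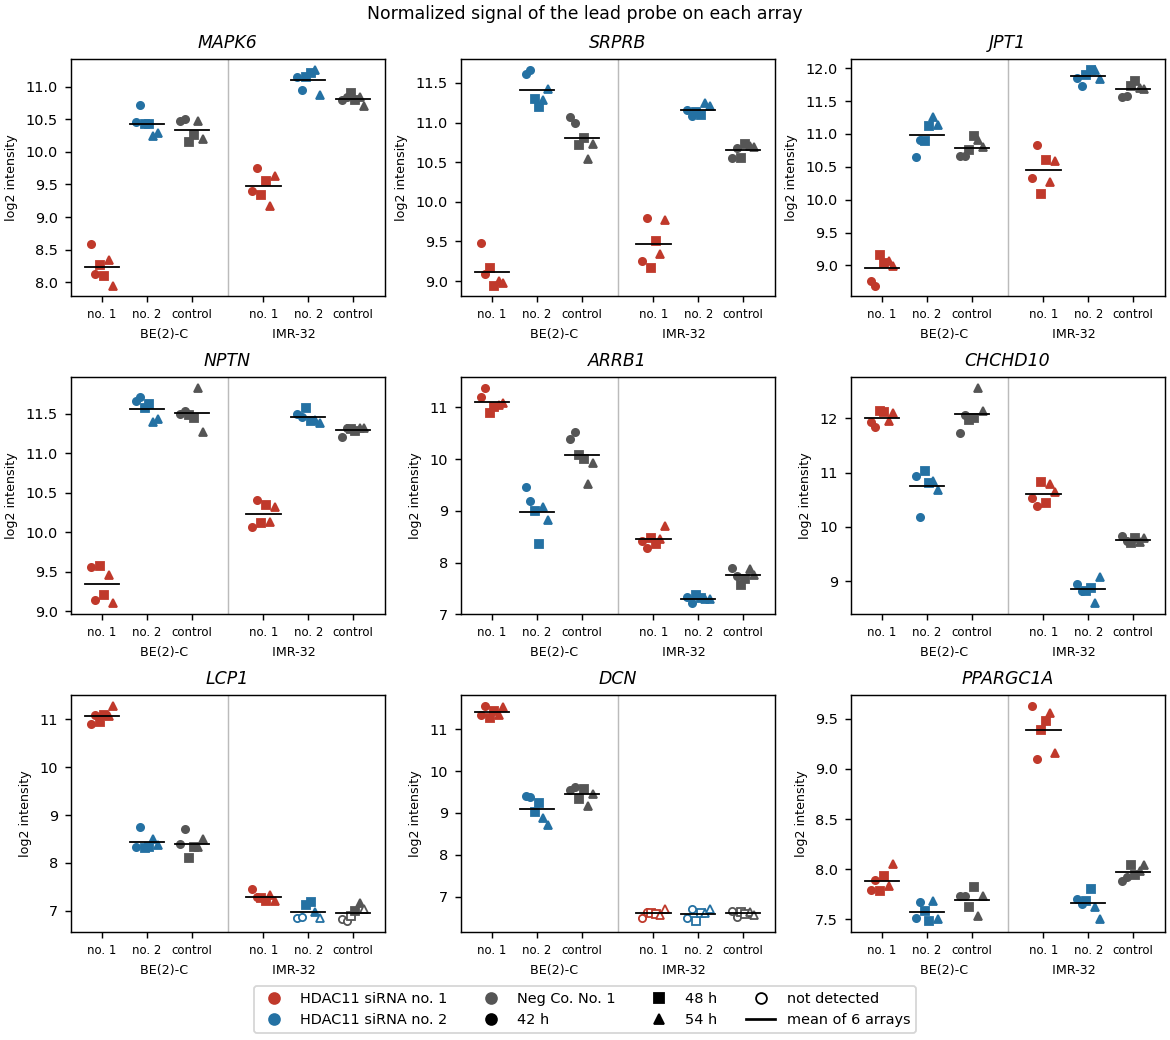
Normalized log2 intensity (vertical axis) of the lead probe of each gene on each of 36 arrays, by siRNA and cell line (horizontal axis), with 1 point per array, the shape giving the time and the bar the mean of 6 arrays. The siRNA no. 1 points of MAPK6, SRPRB, JPT1 and NPTN lie below all others of their line, and open points mark arrays on which the probe was not detected, as for DCN on all 18 IMR-32 arrays.

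The promoters of these 4 genes are shown because the genes share this pattern. They come from RefSeq (GRCh38.p14), which gave promoters for 7 of the 9 genes, each from 250 bases before to 50 bases after an annotated start. JPT1 has 3 annotated starts, of which the one furthest upstream is printed. Capitals mark matches, on either strand, to 6 motifs chosen after the values had been seen and spelled out with their counts. The regions are MAPK6 at chr15:52018969-52019268 on the plus strand, SRPRB at chr3:133805565-133805864 on the plus strand, JPT1 at chr17:75154463-75154762 on the minus strand and NPTN at chr15:73633340-73633639 on the minus strand.
MAPK6 promoter: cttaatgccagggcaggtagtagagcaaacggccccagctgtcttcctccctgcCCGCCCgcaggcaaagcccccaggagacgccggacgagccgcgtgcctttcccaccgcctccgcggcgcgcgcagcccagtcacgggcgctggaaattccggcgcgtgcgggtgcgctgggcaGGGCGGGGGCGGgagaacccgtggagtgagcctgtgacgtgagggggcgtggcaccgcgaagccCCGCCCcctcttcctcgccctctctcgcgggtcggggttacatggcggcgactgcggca
SRPRB promoter: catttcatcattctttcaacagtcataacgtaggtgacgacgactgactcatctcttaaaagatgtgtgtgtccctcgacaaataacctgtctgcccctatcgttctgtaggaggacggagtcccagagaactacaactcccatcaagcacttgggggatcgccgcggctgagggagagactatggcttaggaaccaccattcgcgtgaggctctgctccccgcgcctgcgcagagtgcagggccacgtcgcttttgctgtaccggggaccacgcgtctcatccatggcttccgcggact
JPT1 promoter: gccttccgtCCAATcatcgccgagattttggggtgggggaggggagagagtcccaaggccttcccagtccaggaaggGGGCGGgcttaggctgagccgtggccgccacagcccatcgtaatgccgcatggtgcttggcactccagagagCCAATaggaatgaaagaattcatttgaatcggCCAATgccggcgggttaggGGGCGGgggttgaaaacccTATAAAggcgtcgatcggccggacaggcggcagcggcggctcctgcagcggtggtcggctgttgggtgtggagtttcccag
NPTN promoter: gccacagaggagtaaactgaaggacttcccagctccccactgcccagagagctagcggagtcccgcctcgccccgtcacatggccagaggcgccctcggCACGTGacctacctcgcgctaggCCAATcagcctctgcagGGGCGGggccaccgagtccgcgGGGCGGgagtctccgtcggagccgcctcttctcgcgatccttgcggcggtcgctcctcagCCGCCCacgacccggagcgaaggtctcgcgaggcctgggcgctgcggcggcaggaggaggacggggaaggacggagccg

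No motif was found in all 4 of these windows. GGGCGG occurred 4 times in the MAPK6 window, 2 times in that of JPT1 and 3 times in that of NPTN, and 45% of 35116 promoters of the same length hold it. CCAAT occurred 3 times in the JPT1 window and 1 time in that of NPTN, and 34.6% of promoters hold it. TATAAA occurred 1 time, in the JPT1 window (11.5% of promoters), and CACGTG 1 time, in the NPTN window (7.26%). The SRPRB window held none of the 6 motifs. TGACGTCA, held by 1.85% of promoters, was in none of the 4 windows, nor was CCGGAAG, held by 10.3%. The capitals do not overlap between motifs. The windows of MAPK6, SRPRB, JPT1 and NPTN had GC contents of 72.3%, 55.7%, 62.3% and 71.3%. The matches describe letters only.

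ARRB1 lay on opposite sides of the control with the 2 siRNAs. It encodes beta-arrestin 1, an adaptor that binds phosphorylated G protein-coupled receptors and ends or redirects their signalling. The lead probe read 1900.3, 2145 and 2667 with siRNA no. 1, 329.5, 525 and 704 with siRNA no. 2 and 735, 1055 and 1482 with the control siRNA in BE(2)-C cells. In IMR-32 it read 309.9, 345 and 418 with siRNA no. 1, 148, 158 and 165 with siRNA no. 2 and 189, 215 and 237 with the control siRNA. The 3 groups did not overlap in either line, with siRNA no. 1 above and siRNA no. 2 below the control. The log2 differences from control were 1.03 (0.07) with siRNA no. 1 and -1.09 (0.10) with siRNA no. 2 in the BE(2)-C line. In IMR-32 they were 0.70 (0.06) and -0.45 (0.06).

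The other 2 ARRB1 probes did not show this split. In BE(2)-C cells the second probe gave 231, 259 and 283 with siRNA no. 1, 172, 206 and 235 with siRNA no. 2 and 277, 314 and 371 with the control siRNA, and the third gave 212, 241 and 264 with siRNA no. 1, 144, 163 and 197 with siRNA no. 2 and 298, 348 and 431 with the control siRNA. Every siRNA no. 2 array lay below every control array on both probes, and every siRNA no. 1 array did so on the third, while on the second the siRNA no. 1 arrays overlapped both other groups. With siRNA no. 1 their log2 differences from control in BE(2)-C cells were -0.29 on the second probe and -0.55 on the third, and siRNA no. 2 gave -0.62 on the second and -1.09 on the third. The order of the siRNAs was the same on all 3 probes, while the side of the control on which siRNA no. 1 fell differed between the lead probe and the others. In IMR-32 the second probe differed from control by 0.09 with siRNA no. 1 and by -0.04 with siRNA no. 2, and the third was detected on 3 of 18 arrays. The array annotation ties the lead probe to a sequence record outside RefSeq and the other 2 to RefSeq transcripts of ARRB1, so that the level of the gene as a whole is uncertain.

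CHCHD10, a protein of the mitochondrial intermembrane space that takes part in the upkeep of the cristae, was lower with siRNA no. 2 in both lines. Its BE(2)-C intensities were 3658, 4158 and 4516 with siRNA no. 1, 1165.5, 1819 and 2089 with siRNA no. 2 and 3397, 4184 and 6038 with the control siRNA. Its IMR-32 intensities were 1343, 1542 and 1827 with siRNA no. 1, 386, 462 and 538 with siRNA no. 2 and 835, 870.1 and 918 with the control siRNA. With siRNA no. 1 the BE(2)-C arrays overlapped the control, whereas in IMR-32 cells they all lay above it. The log2 differences from control were -0.06 (0.08) with siRNA no. 1 and -1.33 (0.10) with siRNA no. 2 in BE(2)-C cells. They were 0.84 (0.06) and -0.91 (0.07) in IMR-32 cells.

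LCP1, DCN and PPARGC1A were each higher with siRNA no. 1 mainly in 1 line. LCP1 encodes L-plastin, which bundles actin filaments and is best known from leukocytes. It read 1913, 2166 and 2491 with siRNA no. 1, 316, 327 and 432 with siRNA no. 2 and 274, 329 and 419 with the control siRNA in BE(2)-C cells. In IMR-32 it read 147, 155 and 177 with siRNA no. 1, 115, 122 and 145 with siRNA no. 2 and 110.2, 123 and 144 with the control siRNA. The siRNA no. 1 arrays lay above the control in both lines, but in IMR-32 cells the probe was near background, detected on 6 of 6 siRNA no. 1 arrays, 3 of 6 siRNA no. 2 arrays and 2 of 6 control arrays. The log2 difference from control in BE(2)-C cells was 2.67 (0.07) with siRNA no. 1, or 6.36-fold, and 0.04 (0.08) with siRNA no. 2. In IMR-32 it was 0.34 (0.06) and 0.03 (0.06). Among 9 leukocyte markers measured, CD3E, LYZ, HCLS1 and LAPTM5 were detected on no array, and PTPRC was detected on 1 array, with siRNA no. 1 in IMR-32 cells. CD14 and ITGB2 were detected on all BE(2)-C arrays, and ITGB2 and CORO1A on all IMR-32 arrays. Some of the arrays detected CORO1A in BE(2)-C cells, CD14 in IMR-32 cells and CD79A in both lines. The summed intensity of the 9 lay between 1124 and 1187 with siRNA no. 1, 1185 and 1329 with siRNA no. 2 and 1126 and 1227 with the control in BE(2)-C cells. In IMR-32 it lay between 1141 and 1207, 1186 and 1269, and 1165 and 1267 in the same order of siRNAs.

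DCN encodes decorin, a small leucine-rich proteoglycan that binds collagen fibrils and growth factors. Its lead probe read 2470.1, 2683 and 3024 with siRNA no. 1, 419, 559.9 and 676 with siRNA no. 2 and 578, 728 and 786 with the control siRNA in BE(2)-C cells. All siRNA no. 1 arrays lay above the others, and the siRNA no. 2 and control arrays overlapped. The log2 difference from control was 1.96 (0.07) with siRNA no. 1 and -0.35 (0.07) with siRNA no. 2. On all 18 IMR-32 arrays this probe was at background, so that no level or difference can be given for that line. A second DCN probe repeated the pattern in BE(2)-C cells with a log2 difference from control of 1.46 with siRNA no. 1 and -0.09 with siRNA no. 2. The remaining 2 probes were detected on 5 and 7 of 18 BE(2)-C arrays, and there siRNA no. 1 minus no. 2 was 0.07 and 0.26. The summed intensity of 9 fibroblast markers in BE(2)-C cells was 4544 to 5029 with siRNA no. 1, 2861 to 3289 with siRNA no. 2 and 3422 to 3648 with the control. LUM, PDGFRB and THY1 were detected on every BE(2)-C array, and COL1A2, COL3A1 and PDGFRA on none. The part of these markers in the DCN values was not tested.

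PPARGC1A encodes PGC-1alpha, a coactivator that drives genes of mitochondrial biogenesis and oxidative metabolism. Its BE(2)-C values were 221, 233 and 265 with siRNA no. 1, 179, 187 and 206 with siRNA no. 2 and 185, 213 and 226 with the control siRNA. Its IMR-32 values were 548, 692 and 793 with siRNA no. 1, 182, 204 and 224 with siRNA no. 2 and 236, 249 and 264 with the control siRNA. The control overlapped both siRNAs in BE(2)-C cells, whereas the 3 groups were apart in IMR-32 cells, with siRNA no. 1 highest and siRNA no. 2 lowest. PPARGC1A differed from control in BE(2)-C by 0.19 (0.07) with siRNA no. 1 and -0.12 (0.07) with siRNA no. 2 on the log2 scale. In IMR-32 it differed by 1.41 (0.07) and -0.31 (0.06).

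**Figure D2:**
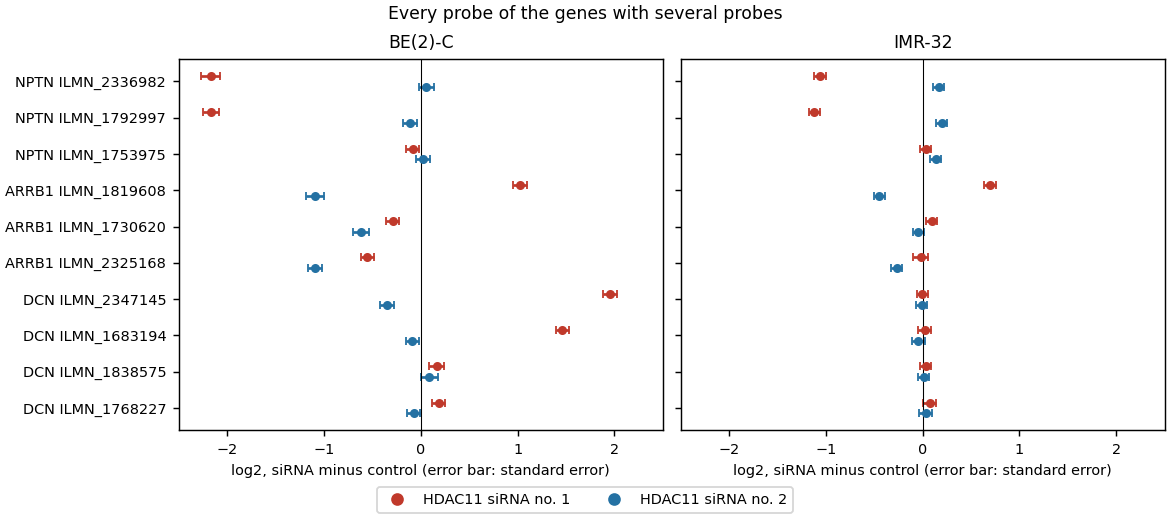
Log2 difference from control (horizontal axis, averaged over 3 times, bars are standard errors) for every probe of NPTN, ARRB1 and DCN, with siRNA no. 1 in red and siRNA no. 2 in blue, in BE(2)-C cells (left) and IMR-32 cells (right). The lead ARRB1 probe lies at 1.03 and -1.09 in BE(2)-C cells, whereas the other 2 ARRB1 probes lie below 0 with both siRNAs.

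Counted over arrays, siRNA no. 1 lay wholly above the control for 3 of the 9 genes in BE(2)-C and 4 in IMR-32, where 4.29% and 4.87% of all probes did. It lay wholly below for the same 4 genes in both lines, where 4.1% and 4.63% of all probes did. For siRNA no. 2, 1 gene in BE(2)-C and 2 in IMR-32 lay wholly above the control (1.78% and 2.12% of all probes), and 2 and 3 lay wholly below (2.23% and 2.57%). The same arrays had chosen the genes, so that these counts only describe them. SRPRB was the gene wholly above the control with siRNA no. 2 in both lines, and ARRB1 and CHCHD10 were wholly below in both.

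Over both lines, siRNA no. 1 minus no. 2 was largest in size for LCP1 in BE(2)-C, 2.63 (standard error 0.07), against 0.31 (0.06) in IMR-32. For NPTN it was -2.23 (0.08) in BE(2)-C and -1.23 (0.07) in IMR-32. For CHCHD10 it was 1.26 (0.09) in BE(2)-C and 1.75 (0.07) in IMR-32. PPARGC1A owed its place to IMR-32, with 0.31 (0.07) in BE(2)-C and 1.72 (0.07) in IMR-32, and DCN to BE(2)-C, with 2.31 (0.07) there.

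The members lay near the ends of the list of named probes in at least 1 line. In BE(2)-C cells JPT1 (-2.03) was the last member below 0, and ITGB5 (-1.95) came next. MAT2B (-2.26) and TXNRD1 (-2.18) lay among the members there without being members. On the other side ARRB1 (2.12) was followed by the histone gene H2AC6 (2.07) and by TAGLN3 (2.01). CHCHD10 (1.26) and PPARGC1A (0.31) lay further from that end in BE(2)-C cells. In IMR-32 JPT1 (-1.42) was followed by KPNA2 (-1.41), and PPARGC1A (1.72) by POLR3GL (1.69). DCX (1.78) and CNTN1 (1.75) lay further out there without being members, and CDKN1A (-2.43), no member either, lay furthest below 0.

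The midpoint of both HDAC11 siRNAs was set against the control to give the level of the siRNAs as a pair, and it is the effect of neither one alone. It rests on the siRNA arrays that chose the genes, and a gene with a wide gap between the siRNAs has a midpoint away from the control unless the control lies midway. Its values are therefore a description, given with standard errors and no test. In limma fits over the 18 arrays of a line, with Benjamini-Hochberg (BH) adjustment over all probes, 7 of the 9 genes were past 0.05 in BE(2)-C cells, 2 higher and 5 lower, where 18.4% of 20045 genes were (8.92% higher and 9.5% lower). In IMR-32 6 were, 2 higher and 4 lower, where 15.5% of genes were (7.54% higher and 7.97% lower), and nothing about the genes is read from these counts. The midpoint of MAPK6 was -1.01 (0.07) on the log2 scale in BE(2)-C and -0.53 (0.06) in IMR-32. That of SRPRB, for which siRNA no. 2 stood above the control, was -0.55 (0.06) and -0.34 (0.07). JPT1 had -0.82 (0.06) and -0.51 (0.07), and NPTN -1.06 (0.08) and -0.45 (0.05). These 4 midpoints lay below the control in both lines. LCP1 lay above it, by 1.35 (0.07) in BE(2)-C and 0.18 (0.05) in IMR-32.

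For DCN the midpoint was 0.80 (0.06) in BE(2)-C cells, and for CHCHD10 it was -0.70 (0.08) there and -0.03 (0.06) in IMR-32, where its siRNAs lay on either side of the control. PPARGC1A had 0.03 (0.06) in BE(2)-C and 0.55 (0.06) in IMR-32. The ARRB1 lead probe, whose siRNAs lay on opposite sides of the control, had midpoints of -0.03 (0.08) in BE(2)-C and 0.13 (0.05) in IMR-32. On the second and the third ARRB1 probes the midpoint was -0.46 (0.07) and -0.82 (0.06) in BE(2)-C cells, below the control on both.

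**Figure D3:**
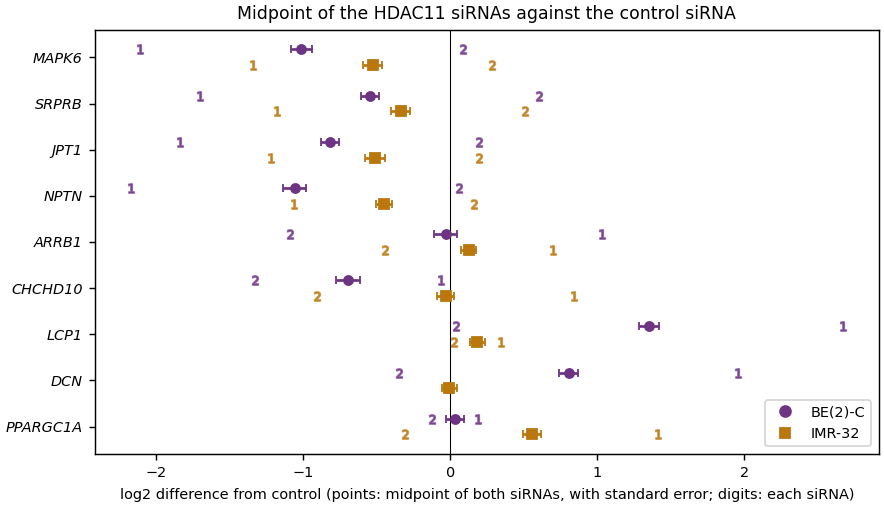
Log2 difference from control (horizontal axis) of the midpoint of both HDAC11 siRNAs, with its standard error, for each gene in BE(2)-C cells (circles) and IMR-32 cells (squares), the digits 1 and 2 marking each siRNA alone. For ARRB1 the digits lie on either side of 0 and the midpoints are -0.03 and 0.13, while for LCP1 in BE(2)-C cells the midpoint of 1.35 lies between 2.67 and 0.04.

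The midpoint in BE(2)-C minus that in IMR-32 describes the same siRNA arrays and is likewise given without a test. Of the 8 genes detected in both lines, 6 were past 0.05 in a limma interaction over all 36 arrays, where 7.4% of 20045 genes were (3.63% with the BE(2)-C midpoint the higher and 3.77% with it the lower). Nothing is read from that count, since genes chosen for a wide gap in 1 line have unlike midpoints in the lines. LCP1 had a difference of 1.17 (0.08), CHCHD10 of -0.66 (0.11) and PPARGC1A of -0.52 (0.09). Those of NPTN and MAPK6 were -0.61 (0.10) and -0.49 (0.10), and those of JPT1 and SRPRB -0.31 (0.09) and -0.21 (0.10). For ARRB1 the probes disagreed in size, with -0.16 on the lead probe and -0.48 on the second. No such difference is given for DCN, which was at background on all 18 IMR-32 arrays.

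The siRNA difference was already present at 42 h. For MAPK6 siRNA no. 1 minus no. 2 was -2.23, -2.24 and -2.12 at 42, 48 and 54 h in BE(2)-C and -1.48, -1.73 and -1.67 in IMR-32. For LCP1 in BE(2)-C cells it was 2.45, 2.70 and 2.74. For PPARGC1A in IMR-32 cells it was 1.69, 1.69 and 1.79. The difference at 54 h minus that at 42 h, which the choice of genes did not use, was tested over the 18 arrays of each line. By limma 0 of the 9 genes passed in BE(2)-C cells, where 0% of all genes did, and 0 in IMR-32 cells, where 0.00998% did. At an unadjusted p under 0.05 there was 1 gene in BE(2)-C cells, DCN, and 0 in IMR-32 cells. For DCN siRNA no. 1 minus no. 2 was 2.06, 2.23 and 2.64, a change of 0.57 between the first and the last time (standard error 0.18, BH-adjusted p = 0.943).

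**Figure D4:**
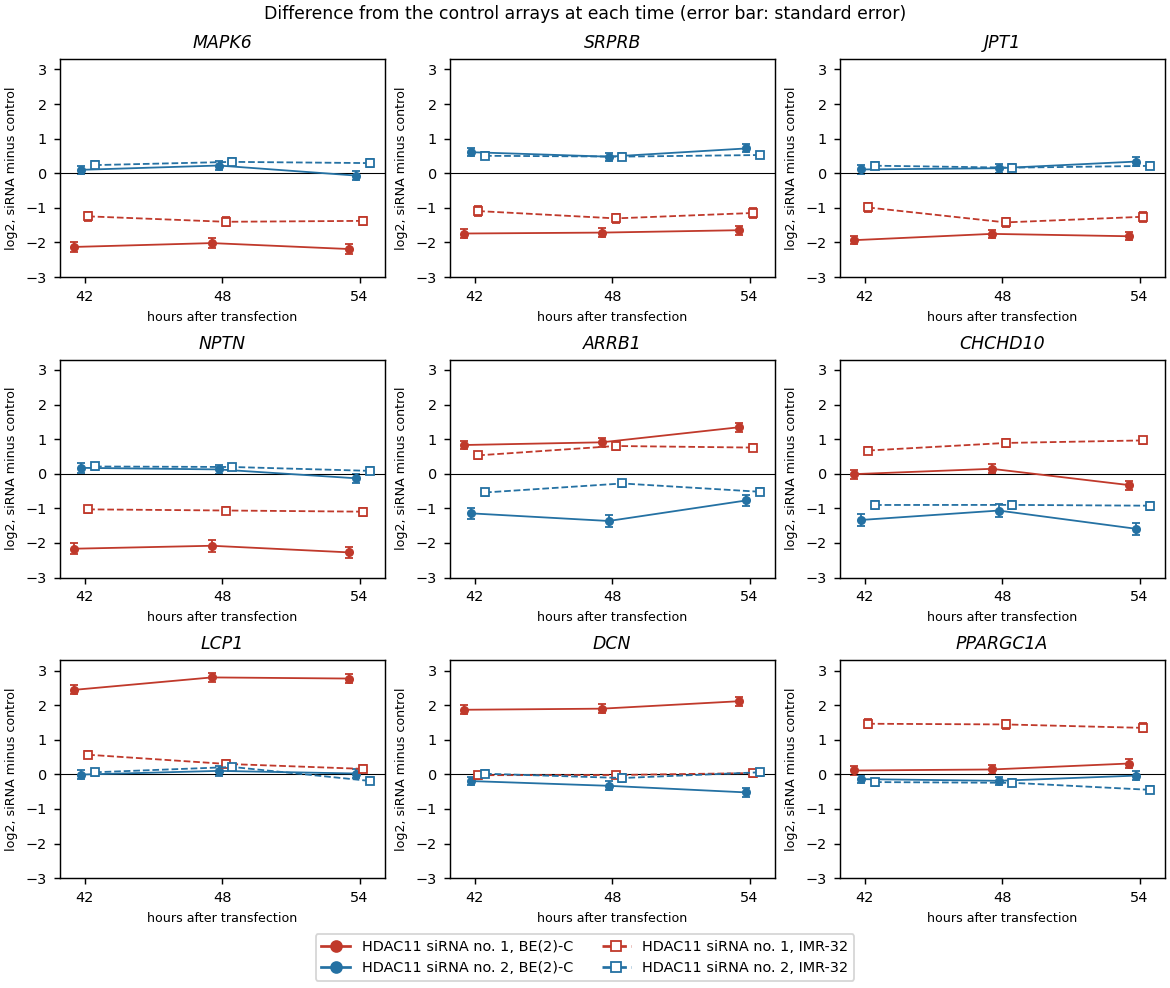
Log2 difference from control (vertical axis, bars are standard errors) at 42, 48 and 54 h (horizontal axis) for each gene, with siRNA no. 1 in red and siRNA no. 2 in blue, BE(2)-C cells as filled circles and IMR-32 cells as open squares. MAPK6 with siRNA no. 1 runs nearly level in BE(2)-C cells, at -2.13, -2.02 and -2.19.

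The control arrays, which played no part in the choice of genes, gave the level of each gene in the lines without HDAC11 siRNA. In the limma fit over all 36 arrays 8 of the 9 genes differed between control BE(2)-C and control IMR-32 cells, 5 higher and 3 lower, against 41.1% of 20045 genes (19.6% higher and 21.5% lower). Nothing is read from that count. A gene at background in 1 line can be chosen only through the other, as DCN was through BE(2)-C. DCN, at background on all IMR-32 controls, was at least 6.16-fold higher in BE(2)-C controls when set against the lowest detected signals of those arrays. The limma test of DCN (BH-adjusted p = 1.64e-36) used the measured signals and not this bound. On the log2 scale ARRB1 was higher in BE(2)-C cells by 2.33 (BH-adjusted p = 5.77e-30), CHCHD10 by 2.31 (BH-adjusted p = 1.33e-27) and LCP1 by 1.44 (BH-adjusted p = 1.66e-23). LCP1 was detected on 2 of 6 IMR-32 controls and, like DCN, owed its place to BE(2)-C cells. The tests of LCP1 and DCN are therefore no independent evidence of a line difference. All 3 ARRB1 probes were higher in BE(2)-C cells, the second by 1.17 (BH-adjusted p = 5.19e-20). JPT1 (-0.88, BH-adjusted p = 5.04e-14), MAPK6 (-0.48, BH-adjusted p = 3.82e-06) and PPARGC1A (-0.27, BH-adjusted p = 0.00216) were lower in BE(2)-C cells. NPTN differed by 0.22 (BH-adjusted p = 0.0322), a call lost in 8 of the 36 fits without 1 array and also with normalization per line (0.09, BH-adjusted p = 0.488), median scaling (0.11, BH-adjusted p = 0.475) and normexp (0.22, BH-adjusted p = 0.0755). SRPRB differed by 0.16, which did not pass (BH-adjusted p = 0.145).

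Between 54 h and 42 h the control changed for 1 of the 9 genes in BE(2)-C cells, against 9.06% of all genes, and for 0 in IMR-32 cells, against 0%. The gene was ARRB1, whose lead probe fell by 0.74 in BE(2)-C controls (BH-adjusted p = 0.000155). Its other probes did not show this fall. On the second the log2 values of the replicates were 8.11 and 8.31 at 42 h and 8.53 and 8.24 at 54 h. On the third they were 8.22 and 8.33 at 42 h and 8.75 and 8.45 at 54 h. Without BE(2)-C control replicate 1 at 54 h 0 of the 9 genes passed, without replicate 2 at 54 h 4 did, and 2 did without either replicate of siRNA no. 2 at 42 h in BE(2)-C cells or of siRNA no. 1 at 42 h in IMR-32 cells, arrays that share the fit's spread. In IMR-32 controls limma left 1 gene at an unadjusted p under 0.05, LCP1.

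Across the 36 arrays, with the mean of each line taken off, the 4 genes that were lower with siRNA no. 1 followed one another with Pearson r between 0.949 and 0.984. LCP1 and DCN had r = 0.957, and CHCHD10 and PPARGC1A r = 0.729. The ARRB1 lead probe had r = 0.785 with DCN, 0.762 with LCP1, 0.756 with CHCHD10 and 0.575 with PPARGC1A. In IMR-32 cells DCN was at background on all 18 arrays and LCP1 was near it. Any r given for DCN thus rests mainly on BE(2)-C cells. Over the 12 control arrays alone the 4 genes lower with siRNA no. 1 had r between -0.42 and 0.56. There LCP1 and DCN had r = 0.487, and CHCHD10 and PPARGC1A r = -0.590. The ARRB1 values there were 0.771, 0.403, -0.710 and 0.359 in the order above. These values describe arrays that share the siRNA groups. Among 10729 other genes, the nearest pattern to MAPK6 was that of NOC3L (r = 0.983), to SRPRB that of POLR1F (0.984), to JPT1 that of GMNN (0.978) and to NPTN that of MAT2B (0.989). RPA2 was among the 3 nearest both for MAPK6 and for JPT1, and NOC3L also for SRPRB (0.976). The nearest to ARRB1 was SEZ6L2 (0.966), to LCP1 the histone gene H4C8 (0.979), to DCN SCG5 (0.977), to CHCHD10 DET1 (0.954) and to PPARGC1A RNF213 (0.957).

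Relatives and partners of the 9 genes were listed with results of these arrays known, and 101 of 108 listed genes were measured. Between siRNA no. 1 and no. 2, limma called 20 higher and 20 lower in BE(2)-C, against 29.8% of 20045 genes (16.1% higher and 13.7% lower). In IMR-32 it called 19 higher and 17 lower, against 28.2% (15.1% higher and 13.1% lower). In both lines 10 were higher and 11 lower, against 17.7% of genes that moved one way in both, and CYCS, named after its values were seen, moved in opposite directions, as 0.918% of genes did. Of 24 relatives, partner factors and targets of PPARGC1A, 6 were higher and 8 lower in BE(2)-C and 5 higher and 6 lower in IMR-32. TFAM and TFB2M, which serve transcription of mitochondrial DNA, were lower with siRNA no. 1 than with no. 2. TFAM fell by 1.31 in BE(2)-C (BH-adjusted p = 1.44e-14) and by 0.82 in IMR-32 (BH-adjusted p = 2.78e-13). Against the control, TFAM was -0.72 with siRNA no. 1 and 0.59 with siRNA no. 2 in the BE(2)-C line. TFAM was named for its gap between the siRNAs on the same arrays, so that these values are a description. TFB2M fell by 1.17 (BH-adjusted p = 2.63e-13) and by 0.89 (BH-adjusted p = 6.98e-14).

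Of 13 arrestins and receptor kinases, 4 were higher and 1 lower in BE(2)-C and 3 higher and 1 lower in IMR-32. GRK5, a kinase that phosphorylates G protein-coupled receptors for arrestin binding, rose by 1.43 in BE(2)-C (BH-adjusted p = 7.3e-15) and by 1.16 in IMR-32 (BH-adjusted p = 2.34e-17). Like the ARRB1 lead probe it was above the control with siRNA no. 1, by 1.02 in BE(2)-C, and below it with siRNA no. 2, at -0.41. GRK5 too was named for its gap between the siRNAs, so that its values against the control are a description. TXNIP, an arrestin-fold protein that binds thioredoxin, rose by 0.99 (BH-adjusted p = 1.34e-12) and 0.92 (BH-adjusted p = 2.86e-12) between the siRNAs.

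Of 11 small leucine-rich proteoglycans other than DCN 1 passed, higher in both lines. It was LUM, which encodes lumican, a collagen-binding relative of decorin and also one of the 9 fibroblast markers. LUM rose by 1.93 in BE(2)-C (BH-adjusted p = 2.07e-16). In IMR-32 it was detected on the 6 siRNA no. 1 arrays alone, at least 1.43-fold above the lowest detected signals of the siRNA no. 2 arrays. The limma test of LUM there (BH-adjusted p = 4.64e-09) used the measured signals and not this bound. Of 7 plastins and other actin bundlers, 1 was higher and 2 lower in BE(2)-C and 0 higher and 1 lower in IMR-32. PLS3, the plastin of non-blood tissues, was lower with siRNA no. 1 than with no. 2 where LCP1 was higher, at -0.73 in BE(2)-C (BH-adjusted p = 3.73e-09) and -0.26 in IMR-32 (BH-adjusted p = 0.00181). FSCN1, which bundles actin in filopodia, rose in BE(2)-C cells by 0.36 (BH-adjusted p = 8.06e-05) and was at -0.04 in IMR-32 (BH-adjusted p = 0.751).

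Of 7 genes of the JPT and stathmin list, 1 was higher and 2 lower in BE(2)-C and 2 higher and 2 lower in IMR-32. STMN1, which destabilises microtubules, fell by 0.76 in BE(2)-C (BH-adjusted p = 8.58e-11) and by 0.57 in IMR-32 (BH-adjusted p = 1.18e-09). Its neuronal relative STMN2 was at 0.01 in BE(2)-C (BH-adjusted p = 0.975) and rose by 1.43 in IMR-32 (BH-adjusted p = 5.9e-19). Of 12 CHCHD and MICOS proteins, 1 was higher and 4 lower in BE(2)-C and 1 higher and 2 lower in IMR-32. CHCHD4, an import factor of the intermembrane space, fell by 0.66 in BE(2)-C (BH-adjusted p = 1.08e-09) and was at 0.09 in IMR-32 (BH-adjusted p = 0.39). IMMT, the core of the MICOS complex of the cristae, fell by 0.45 in BE(2)-C (BH-adjusted p = 1.8e-06) and was at -0.06 in IMR-32 (BH-adjusted p = 0.615).

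Of 10 genes of the signal recognition particle and its receptor, 1 was higher and 1 lower in BE(2)-C and 0 higher and 4 lower in IMR-32. SRPRA, the receptor subunit that SRPRB holds at the membrane, fell by 0.22 (BH-adjusted p = 0.0302) and by 0.36 (BH-adjusted p = 2.57e-05) between the siRNAs. SEC61A2, a channel subunit, was at -0.11 in BE(2)-C (BH-adjusted p = 0.374) and fell by 0.35 in IMR-32 (BH-adjusted p = 1.31e-05). Of 9 MAPK6 relatives and partners, 2 were higher and 1 lower in BE(2)-C and 3 higher and 1 lower in IMR-32. MAPKAPK5, the kinase that ERK3 activates, rose by 0.43 in BE(2)-C (BH-adjusted p = 1.77e-06) and was at 0.10 in IMR-32 (BH-adjusted p = 0.357). NLK, another atypical MAP kinase, fell by 0.44 (BH-adjusted p = 8.67e-06) and by 0.24 (BH-adjusted p = 0.00495). Of 8 NPTN relatives and partners, 3 were higher and 1 lower in BE(2)-C and 4 higher and 0 lower in IMR-32. BSG, the closest relative of NPTN in the list, rose by 0.45 (BH-adjusted p = 0.000392) and 0.28 (BH-adjusted p = 0.000697). The calcium pump gene ATP2B2, detected on 2 of 18 BE(2)-C arrays and 10 of 18 IMR-32 arrays, was at 0.02 in BE(2)-C (BH-adjusted p = 0.918) and rose by 0.38 in IMR-32 (BH-adjusted p = 3.84e-06).

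**Figure D5:**
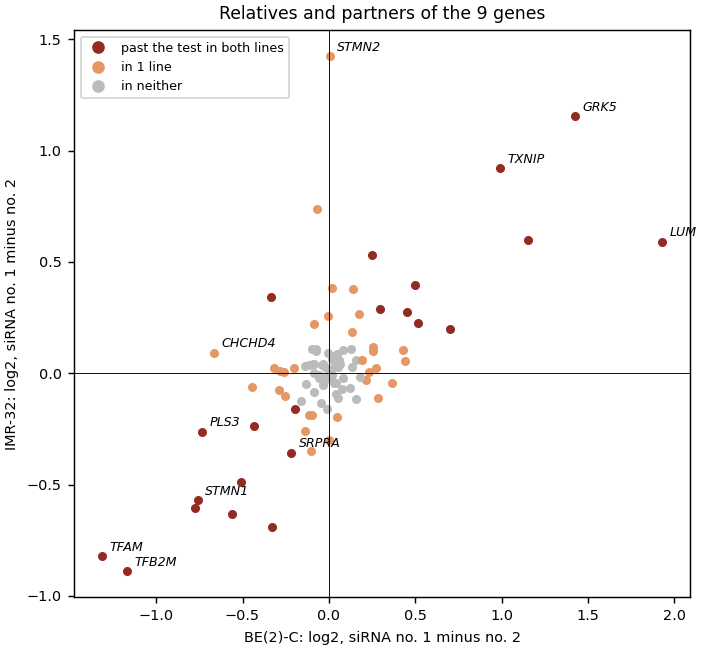
Log2 difference of siRNA no. 1 minus siRNA no. 2 in BE(2)-C cells (horizontal axis) and IMR-32 cells (vertical axis) for 101 relatives and partners, with 1 point per gene coloured by whether it passed the test in both lines, in 1 or in neither. TFAM and TFB2M lie at the lower left, GRK5, TXNIP and LUM at the upper right, and STMN2 at 0.01 in BE(2)-C and 1.43 in IMR-32.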

How the data were processed

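Total RNA of 36 cultures was hybridised to Illumina HumanHT-12 BeadChips, 1 array per sample. The deposited table held non-normalized bead intensities, for which the authors had removed outlying beads, and a detection p-value deposited beside each intensity. The authors' own normalized intensities, also deposited, served as an alternative. Of 47323 probes, 3 with blank or zero cells were left out, and the others were quantile normalized over all arrays and set on the log2 scale. Probe names came from the platform annotation (30112 probes with 1 symbol, 17200 with none and 8 with several), updated through RefSeq for 30073. Depth does not apply to arrays, and the number of arrays limits the precision.

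Differences were fitted with limma (version 3.58.1, R 4.3.3) on the 12 or 18 arrays of a line, or on all 36 for comparisons between lines and between times in the controls, each with 1 mean per siRNA, line and time. P-values were two-sided with Benjamini-Hochberg adjustment over 47320 probes and a threshold of 0.05. The members, gene lists and tests were chosen with earlier results of these data known. Named genes were the 9 members, up to 2 relatives per list by size of siRNA difference past the test, and the 3 genes nearest to a member by Pearson r among genes detected on at least 18 arrays. Genes just inside and outside the choice and CYCS were named after their values were seen. Marker lists covered adrenergic neuroblastoma, leukocytes, fibroblasts, endothelial and Schwann cells. A bound replaced a level at background by the lowest detected signal of the array. Alternatives were normalization per line, median scaling, normexp background correction, the authors' values, a filter on dim probes, an intensity trend with robust prior, a replicate block, the second probe and leaving out each array. Replicate numbers did not pair the samples. Scripts were tested on simulated data. Figures used Python 3.11.15 and matplotlib 3.10.9.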

Additional observations from a re-analysis of the deposited data

Results flagged for a closer look

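The midpoint of the HDAC11 siRNAs against the control differed between BE(2)-C and IMR-32 cells in the limma interaction over 36 arrays for 6 genes. The difference, BE(2)-C minus IMR-32 on the log2 scale, was 1.17 for LCP1, -0.66 for CHCHD10, -0.61 for NPTN, -0.52 for PPARGC1A, -0.49 for MAPK6 and -0.31 for JPT1. The siRNA arrays behind it also chose the genes, so that these values are a description and no independent evidence of a line difference. For CHCHD10, siRNA no. 1 stood at -0.06 from the control in BE(2)-C and at 0.84 in IMR-32, and siRNA no. 2 at -1.33 and -0.91.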

How the results depend on the processing

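Numbers of members whose midpoint was past 0.05, a description as in the text, ranged from 7 to 7 in BE(2)-C cells and from 5 to 6 in IMR-32 cells when 1 array was left out. Among the values followed under the alternatives run, none past a test changed sign. The change between times in the controls was followed as a count alone, and the sign for single genes was not. For the control at 54 h minus 42 h in BE(2)-C cells the number of members past the test was 1, and 0 to 4 when 1 array was left out. Replicate numbers did not pair the samples (r from -0.03 to 0.17 over 18 pairs, 4 of them over 0.1). With the replicate number as a block, comparisons of controls between lines and between times were fitted at the level of replicate 1. The block is therefore no check on those comparisons, and nothing is read from it for them. With the second probe of NPTN, ARRB1 and DCN, the number of members past the test between control times in BE(2)-C cells was 0. The median size of siRNA no. 1 minus no. 2 in BE(2)-C cells was then 2.03, against 2.20 with the lead probes. That of siRNA no. 1 minus control was 1.70, against 1.83. The medians hide ARRB1, for which siRNA no. 1 minus no. 2 in BE(2)-C cells was 0.33 with the second probe, against 2.12. In IMR-32 cells it was 0.14 for ARRB1, against 1.14. In BE(2)-C cells DCN had 1.55, against 2.31, and NPTN -2.06, against -2.23. The control line difference of NPTN missed the threshold with normalization per line (0.09), median scaling (0.11) and normexp (0.22). The line difference of the JPT1 midpoint was past 0.05 in the limma fit but not in 25 of the 36 fits without 1 array, nor with median scaling (-0.31), normexp (-0.33) and the authors' values (-0.28). The causes were not tested. Under the filter on dim probes DCN dropped out in IMR-32 cells, and no comparison between lines was run. Signals near background limit DCN, LCP1 and the third ARRB1 probe in IMR-32 cells.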
